A study of Mus musculus with 4 samples.

Results

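Astrocytes clear glutamate and potassium from around synapses, pass water and ions to blood vessels through their end-feet, and share metabolites through gap junctions. The genes behind these tasks are read far more in astrocytes than in neurons, and several of them serve as astrocyte markers in hippocampus. In a bulk tissue sample such genes report both how many astrocytes were taken and how much RNA each one held, and fewer cells of a type cannot be told apart from less RNA per cell. The 9 genes described here, of 23466 gene symbols in the deposited table, were chosen by name: the glutamate transporters Slc1a2 and Slc1a3, the sodium-bicarbonate cotransporter Slc4a4, the water channel Aqp4, the gap junction proteins Gja1 and Gjb6, the membrane protein Mlc1, and the enzymes Aldh1l1 and Aldoc. No threshold on a measured value enters that choice, but it was made with earlier results of these data known. Each gene was represented by its transcript record with the highest mean, and all 9 passed the filter on low values.

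The 4 libraries came from frozen hippocampus of C57BL/6N mice at postnatal day 30. Mutants 38 and 39 have the condition Atp6ap2Camk2aCre/0, called conditional het in the labels and ko in the titles. Wild-types 11 and 73 are labelled wt, with no further allele named. Atp6ap2 is an accessory subunit of the vacuolar proton pump, and the Camk2a promoter drives Cre recombinase in forebrain excitatory neurons, not in astrocytes. The genes described here are known mainly from astrocytes, but bulk tissue does not show which cells their reads came from. The labels do not say whether each sample is 1 animal, and p-values then measure only the spread between these samples.

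Values are scaled read equivalents, which are the deposited aligned bases of a transcript divided by 42, the bases that 1 read contributed. The libraries held between 10023033 read equivalents (wild-type 73) and 18339838 (wild-type 11) before scaling. Atp6ap2 itself stood at 2312 (wild-type 11), 2637 (wild-type 73), 2551 (mutant 38) and 2522 (mutant 39) scaled read equivalents, so that the groups overlapped. Mutants differed from wild-types by 0.04 ± 0.10 log2 units (SE over 2 and 2 libraries, n = 2, limma adjusted p = 0.991). A reduction of Atp6ap2 RNA was thus not seen in these libraries. Whether exons outside a deleted part or cells without Cre hide one was not tested. The hippocampal neuron markers examined were all read, 9 of 9, with a summed level of 13564 and 15203 in the wild-types and 11328 and 14268 in the mutants. Of these markers, 3 were lower in the mutants without overlap and 0 higher, beside 16.5% and 16.8% of all genes. Their median log2 fold change was -0.16, and 0 passed limma's adjusted test. Of 27 further astrocyte identity genes, 27 passed the filter, and Gfap, the intermediate filament of astrocytes, had between 6272 and 7475 scaled read equivalents in each library. Choroid plexus epithelium markers divided both groups. Their sum over 17 genes was 76238 in wild-type 11 and 127015 in mutant 38, against 7769 in wild-type 73 and 8024 in mutant 39.

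No difference between mutants and wild-types was detected in these 9 astrocyte genes. Of the 9, 0 passed limma's test at an adjusted p of 0.05 and 0 had an unadjusted p below 0.05, where 0.00552% and 3.94% of the 18127 genes tested did (2.18% higher and 1.75% lower at the unadjusted p). Fold changes ran from 0.946 for Aldoc to 1.09 for Aqp4. On the log2 scale 7 were above 0 and 2 below, with a median of 0.05 beside 0.0067 over all genes tested. The widest limits of the 95% intervals were 0.756-fold for Aldoc and 1.38-fold for Slc1a2, so changes beyond these lay outside the interval of every one of the 9 genes. The authors' deposited table gave p between 0.377 (Aqp4) and 0.848 (Slc4a4) for the same 9 records.

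**Figure D1:**
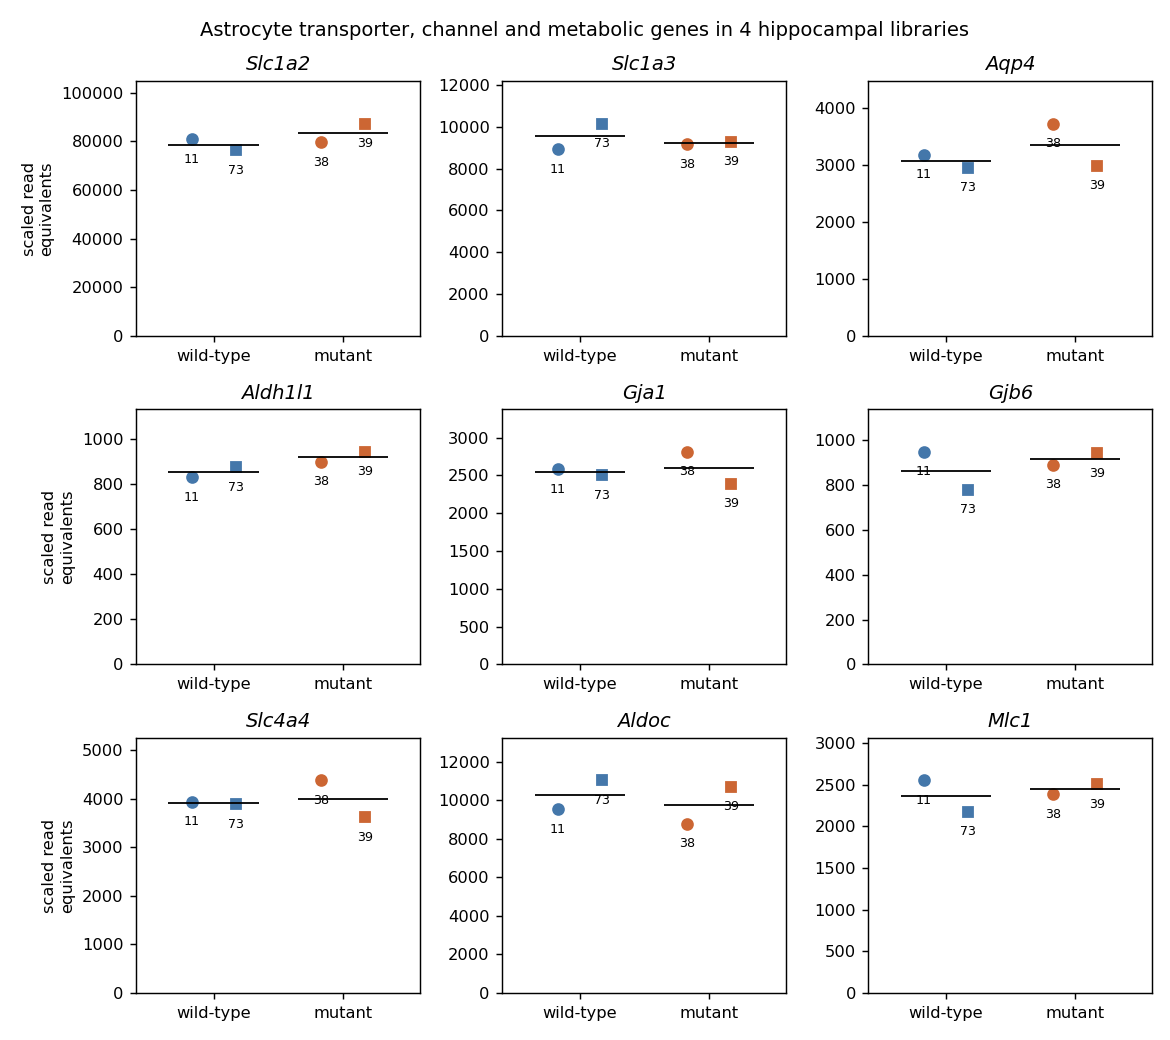
Scaled read equivalents (vertical axes, starting at 0) of the 9 genes in the wild-type libraries 11 and 73 (blue) and the mutant libraries 38 and 39 (orange), with a horizontal line at each group's mean. Within each gene the highest library is at most 1.26 times the lowest, and Aldh1l1 alone has both mutants above both wild-types.

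Slc1a2 encodes GLT-1, the transporter that takes up most of the glutamate released in the forebrain. It was by far the most strongly read of the 9, with 80853 (wild-type 11), 76338 (wild-type 73), 79557 (mutant 38) and 87305 (mutant 39) scaled read equivalents. Mutant 39 was the highest library and wild-type 73 the lowest, and mutant 38 lay between the wild-types. The group difference came to 0.09 ± 0.16 log2 units (SE over 2 and 2 libraries, n = 2; interval at 95% from -0.30 to 0.47; limma adjusted p = 0.989).

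The table holds 3 transcript records of Slc1a2, which share reads. The second record had 96.0% of the signal of the first, and the third had 17.1%, ranging from 16.2% to 17.7% over the 4 libraries. The log2 differences of the 3 records were 0.09, 0.10 and 0.11. The third record was thus a nearly constant share of the first in both groups.

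Slc1a3 encodes GLAST, the other astrocytic glutamate transporter, which also marks radial glia. It stood at 8924 (wild-type 11), 10149 (wild-type 73), 9152 (mutant 38) and 9280 (mutant 39) scaled read equivalents. Both mutants lay between the wild-types. Between the groups lay a difference of -0.05 ± 0.11 log2 units (SE over 2 and 2 libraries, n = 2; interval at 95% from -0.31 to 0.21; limma adjusted p = 0.989). The pair of astrocytic transporters therefore had estimates of opposite sign, each smaller than its standard error.

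Slc4a4 encodes NBCe1, which moves bicarbonate with sodium and buffers pH in astrocytes. Its values were 3942 (wild-type 11), 3882 (wild-type 73), 4376 (mutant 38) and 3613 (mutant 39). The wild-types were nearly equal, and the mutants lay on either side of them. Mutant minus wild-type gave 0.02 ± 0.12 log2 units (SE over 2 and 2 libraries, n = 2; interval at 95% from -0.26 to 0.30; limma adjusted p = 0.995). The gap between the mutants, 0.28 on the log2 scale, was larger than the difference between the groups. Its 3 transcript records were nearly equal, with 99.6% and 99.8% of the top record's signal in the other two.

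Aqp4 encodes the water channel concentrated in astrocyte end-feet at blood vessels. It stood at 3178 (wild-type 11), 2955 (wild-type 73), 3729 (mutant 38) and 2988 (mutant 39) scaled read equivalents. Mutant 38 stood above the other libraries, and mutant 39 lay between the wild-types. The log2 fold change of 0.12 ± 0.13 (SE, n = 2 per group; interval at 95% from -0.18 to 0.43; limma adjusted p = 0.989) was the highest of the 9. It was -0.036 without mutant 38.

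Mlc1 encodes a membrane protein of astrocyte contacts whose loss causes a leukoencephalopathy with cysts. It had 2551 (wild-type 11), 2175 (wild-type 73), 2387 (mutant 38) and 2506 (mutant 39). Wild-type 73 was the lowest library and wild-type 11 the highest, with both mutants between them. Mutants differed from wild-types by 0.05 ± 0.11 log2 units (SE over 2 and 2 libraries, n = 2; interval at 95% from -0.21 to 0.32; limma adjusted p = 0.989).

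The gap junction genes Gja1 and Gjb6 encode connexin 43 and connexin 30, which join astrocytes into a network. Gja1 stood at 2581 (wild-type 11), 2503 (wild-type 73), 2809 (mutant 38) and 2390 (mutant 39) scaled read equivalents. As for Slc4a4, the mutants lay on either side of the wild-types, and the groups differed by 0.03 ± 0.11 log2 units (SE over 2 and 2 libraries, n = 2; interval at 95% from -0.23 to 0.29; limma adjusted p = 0.993). Gjb6 had 947 (wild-type 11), 778 (wild-type 73), 890.4 (mutant 38) and 941 (mutant 39). As for Mlc1, both mutants lay between a high wild-type 11 and a low wild-type 73. The group difference came to 0.09 ± 0.13 log2 units (SE over 2 and 2 libraries, n = 2; interval at 95% from -0.21 to 0.39; limma adjusted p = 0.989). Its second transcript record had 99.7% of the signal of the first, so the records do not separate isoforms.

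Aldh1l1 encodes 10-formyltetrahydrofolate dehydrogenase, an enzyme of folate metabolism and a widely used astrocyte marker. It stood at 832 (wild-type 11), 875 (wild-type 73), 900 (mutant 38) and 944 (mutant 39) scaled read equivalents. Both mutants were above both wild-types, as in 16.8% of all genes tested. Between the groups lay a difference of 0.11 ± 0.10 log2 units (SE over 2 and 2 libraries, n = 2; interval at 95% from -0.13 to 0.36; limma adjusted p = 0.989). Of the 9 genes, 1 was higher without overlap and 0 were lower without overlap, where 16.5% of all genes were lower, and a share of 1 in 9 is not above this background.

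Aldoc encodes aldolase C, the glycolytic aldolase of brain, which is abundant in astrocytes. It had 9532 (wild-type 11), 11031 (wild-type 73), 8795 (mutant 38) and 10705 (mutant 39). Wild-type 73 and mutant 39 were the higher libraries of their groups. Mutant minus wild-type gave -0.08 ± 0.14 log2 units (SE over 2 and 2 libraries, n = 2; interval at 95% from -0.40 to 0.24; limma adjusted p = 0.989). Its sign turned without wild-type 73 (0.026) and without mutant 38 (0.062).

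**Figure D2:**
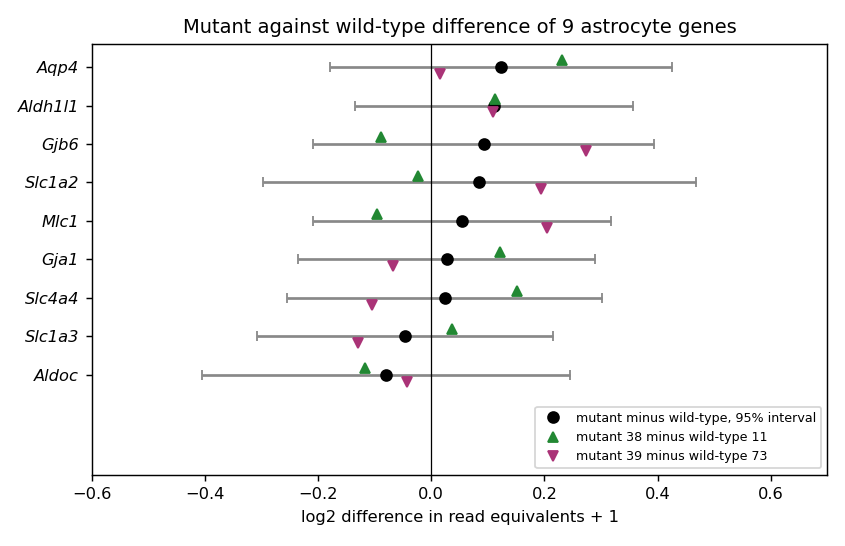
Log2 difference between mutants and wild-types for the 9 genes (horizontal axis), with the 95% interval of the limma fit on all 4 libraries, and the difference within each pair of libraries alike in choroid plexus markers (triangles, 1 library against 1). Every interval includes 0, and the triangles lie on opposite sides of 0 for 6 genes.

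The difference between the groups was smaller than the larger gap between libraries of 1 group for 8 of the 9 genes, all but Aldh1l1. The libraries were nevertheless close. The highest library was between 1.13 times (Aldh1l1) and 1.26 times (Aqp4) the lowest, with a median of 1.18. That is the same as the median of 1.18 over the 4232 genes with a mean at least as high as that of Aldh1l1, the lowest of the 9. The coefficient of variation over the 4 libraries was between 5.28% (Aldh1l1) and 11.1% (Aqp4). Counting error alone gives between 0.321% (Slc1a2) and 4.48% (Gjb6). Reads without molecular identifiers are not independent molecules, and these limits cover counting error only.

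The 9 genes did not vary as 1 block. Aqp4, Gja1 and Slc4a4 were highest in mutant 38, and each was higher in the library rich in choroid plexus markers within both groups. For Aqp4 that library was higher by 0.11 in the wild-types and by 0.32 in the mutants on the log2 scale. The corresponding differences were 0.04 and 0.23 for Gja1 and 0.02 and 0.28 for Slc4a4. Slc1a3, Aldh1l1 and Aldoc were lower in the choroid plexus-rich library of both groups, with -0.21 and -0.28 for Aldoc in wild-types and mutants. Slc1a2, Gjb6 and Mlc1 were higher in it among wild-types and lower in it among mutants.

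Other cell types differed between the same libraries. All 17 choroid plexus markers and all 10 oligodendrocyte markers were higher in the choroid plexus-rich library of both groups, whereas 9 of 10 general neuronal markers were lower in it. The summed neuronal level was 70034 in wild-type 11 and 76275 in mutant 38, against 87215 in wild-type 73 and 87364 in mutant 39. The summed level of 8 markers of thalamus, a neighbouring region, was 4593 in mutant 38, the library in which Aqp4, Gja1 and Slc4a4 were highest, against 1918 in wild-type 11, 2036 in wild-type 73 and 2078 in mutant 39. Prkcd, the thalamus marker read most, had 1841 there and between 405 and 499 elsewhere. The sum of 6 meningeal fibroblast markers was lower in both mutants, with 13081 and 12270 in wild-types 11 and 73 against 9363 in mutant 38 and 8749 in mutant 39. Most of that sum was 1 gene, Ptgds, with 11041 and 10441 against 7593 and 7851 in the same order. Of the 6 markers, 2 were lower without overlap, beside 16.5% of all genes, and the highest log2 fold change was 0.08. When the choroid plexus level entered the fit, 0 of the 9 genes passed limma's adjusted test and 0 signs turned. Each group held 1 rich and 1 poor library, so that fit could hardly move a group difference, and it left 1 residual degree of freedom. It cannot show what part choroid plexus content had in the values of these genes. The part of the oligodendrocyte, neuronal, thalamic and meningeal differences was not tested.

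**Figure D3:**
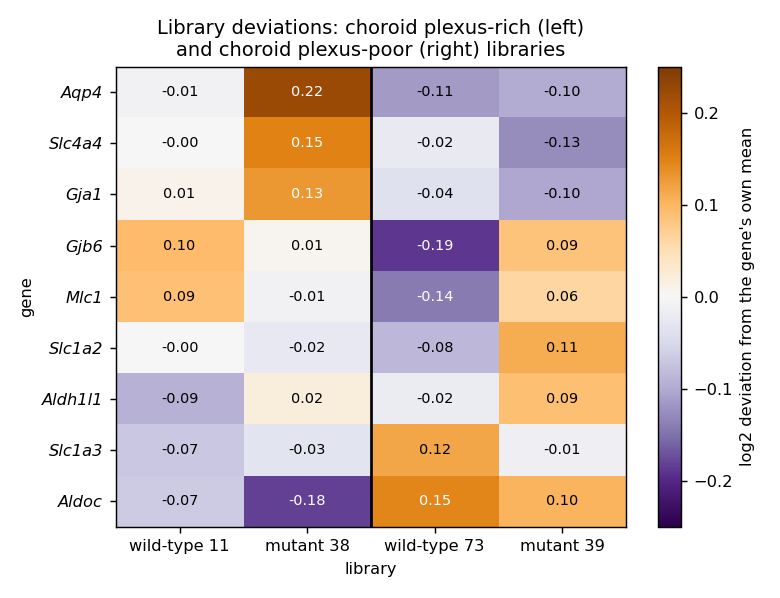
Log2 deviation of each gene (rows) from its own mean over the 4 libraries (columns), with the libraries rich in choroid plexus markers left of the line and the poor ones right of it. Aqp4, Slc4a4 and Gja1 reach 0.22, 0.15 and 0.13 in mutant 38, while Aldoc has -0.18 there and 0.15 in wild-type 73.

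Within the choroid plexus-rich pair, the log2 difference of mutant 38 from wild-type 11 was highest for Aqp4 (0.23) and lowest for Aldoc (-0.12). Within the poor pair, the difference of mutant 39 from wild-type 73 was highest for Gjb6 (0.27) and lowest for Slc1a3 (-0.13). Of the 9 genes, 3 had the same sign in both pairs, namely Aqp4, Aldh1l1 and Aldoc. Aldh1l1 had 0.11 in each pair. Leaving out 1 library turned the sign of 7 genes. Without mutant 38, Aqp4, Gja1 (-0.089), Slc4a4 (-0.11) and Aldoc turned, and without wild-type 73, Slc1a3 (0.046), Gjb6 (-0.049), Aldoc and Mlc1 (-0.061) did. Slc1a2 and Aldh1l1 stayed above 0 with any 1 library left out.

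Adjusted for transcript length, the levels of the 9 genes spanned more than an order of magnitude. Slc1a2 led with 6987 ± 397 scaled read equivalents per kilobase (SD, n = 4 libraries), followed by Aldoc with 5892 ± 610 and Slc1a3 with 2252 ± 129. Mlc1 (864 ± 60.4) and Gja1 (837 ± 57.7) came next, and their ranges over the libraries overlapped. Below them were Aqp4 with 636 ± 70.9, Slc4a4 with 498 ± 39.8 and Gjb6 with 422 ± 37.2. Aldh1l1 was the lowest at 291 ± 15.4. The ranges of all other neighbours in this order did not overlap. Lengths were those of GENCODE M21 transcripts matched to the deposited records, which may differ from the models the authors counted on.

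**Figure D4:**
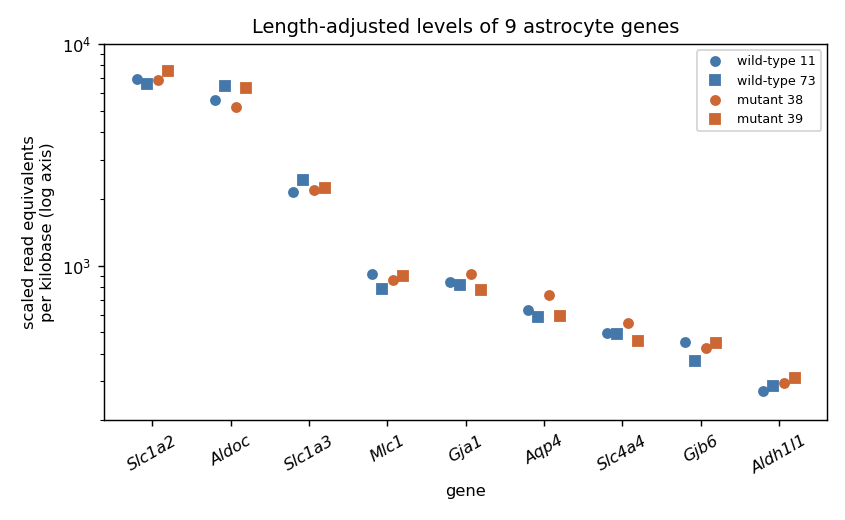
Scaled read equivalents per kilobase of transcript (vertical log axis) for the 9 genes in order of their mean, with 1 point for each library. Slc1a2 lies between 6584 and 7530 and Aldh1l1 between 273 and 309, and the ranges of neighbours overlap only for Mlc1 and Gja1.

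Start regions of 8 of the 9 genes, all but Aqp4, were taken from a RefSeq promoter table (GRCm38.p6). Aqp4 was left out because windows on its chromosome were not used for the 9 genes. The 250 bases before each start were searched on both strands for 5 short motifs. These were the TATA box (TATAAA), the CCAAT box (CCAAT) and the GC box (GGGCGG). The others were the half-site of nuclear factor I (TTGGC) and the SOX motif (ACAAAG). The CCAAT box was found in 3 of the 8 windows, against 33.8% of all 32851 windows of that length, and the GC box in 3, against 32.7%. The TATA box was found in 1, against 12.4%, and the SOX motif in 0, against 16.5%. The half-site was found in 3, against 41.5%, and its first letters overlap the reverse strand of the CCAAT box. The GC content ran from 44.8% in Slc1a2 and Slc1a3 to 82.0% in Slc4a4, around a median of 52.4% for all windows. The start used for Slc1a2 lies 47779 bases from that of the transcript measured here, that for Slc4a4 442 and that for Mlc1 454. Their windows therefore do not border the measured start, yet they stay in these counts. The half-site was found in the windows of Slc1a2, Slc4a4 and Mlc1 only, so its count rests wholly on them. The highest GC content, in Slc4a4, is from such a window too. For the other genes searched the distance was at most 43 bases. No searched motif was in all windows, and the build is not the mm9 of the deposited values. A match is a description of letters, not a binding site. The windows of Aldh1l1, whose groups did not overlap and whose upstream region is used in reporter mice to mark astrocytes, and of Slc1a3, the only one with a TATA box, are shown because of these features, written 5′ to 3′ with the TATA, CCAAT and GC boxes on either strand in capitals. That of Aldh1l1 is chr6:90550543-90550792 on the plus strand, and that of Slc1a3 is chr15:8710808-8711057 on the minus strand.
Aldh1l1: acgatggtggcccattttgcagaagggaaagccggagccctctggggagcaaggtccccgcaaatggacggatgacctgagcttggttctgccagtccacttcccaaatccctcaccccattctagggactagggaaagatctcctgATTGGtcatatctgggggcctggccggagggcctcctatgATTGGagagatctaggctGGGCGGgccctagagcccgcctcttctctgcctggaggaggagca
Slc1a3: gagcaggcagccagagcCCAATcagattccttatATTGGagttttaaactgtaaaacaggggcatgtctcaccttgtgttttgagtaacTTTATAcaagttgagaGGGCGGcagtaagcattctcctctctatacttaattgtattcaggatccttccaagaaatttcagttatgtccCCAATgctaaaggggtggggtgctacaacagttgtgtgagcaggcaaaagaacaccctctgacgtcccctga

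Further astrocyte genes were read beside the 9, in 4 lists with 78 genes. Of these, 0 passed limma's adjusted test, and an unadjusted p below 0.05 was reached by 4 that were higher and 0 that were lower, or 5.13% beside 3.94% of all genes. Both mutants lay above both wild-types for 17 genes and below them for 8, or 21.8% and 10.3%, where all genes had 16.8% and 16.5%. The median log2 fold change was 0.04. Counts for these lists are a description, and no test was made of a list.

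Among 13 genes of glutamate and amine handling, the median was 0.07 and 0 had an unadjusted p below 0.05. Glul, the enzyme that turns the glutamate taken up by Slc1a2 and Slc1a3 into glutamine, had 28966 (wild-type 11), 25663 (wild-type 73), 29588 (mutant 38) and 33382 (mutant 39). Both mutants were above both wild-types, with a log2 fold change of 0.20 ± 0.14 (SE, n = 2 per group, limma adjusted p = 0.989). Slc7a11, the cystine-glutamate exchanger, lay lower in both mutants, with -0.23 ± 0.11 (SE, n = 2 per group) and the same adjusted p from limma.

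Among 16 genes of ion, water and membrane domains, the median was 0.01. Kcnj10, the Kir4.1 channel that takes up potassium beside Aqp4, had 1670 (wild-type 11), 1224 (wild-type 73), 2125 (mutant 38) and 1763 (mutant 39). Mutants differed from wild-types by 0.44 ± 0.17 log2 units (SE over 2 and 2 libraries, n = 2; unadjusted p = 0.0356, adjusted p = 0.989 with limma). The p in the authors' deposited table was 0.0182 for Kcnj10. Oligodendrocytes also express Kcnj10. The summed oligodendrocyte markers had the same order of libraries, from 65703 in wild-type 73 through 91120 in wild-type 11 and 99091 in mutant 39 to 112015 in mutant 38. Their part in the Kcnj10 difference was not tested. Hepacam, the partner protein of Mlc1, had 937 and 911 in the wild-types against 973 and 960.5 in the mutants.

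Among 22 metabolic genes, the median was 0.03. Slc2a1, the glucose transporter of astrocytes and brain endothelium, had the smallest p of this list, with 1436 (wild-type 11), 1679 (wild-type 73), 2717 (mutant 38) and 2393 (mutant 39). The group difference came to 0.72 ± 0.12 log2 units (SE over 2 and 2 libraries, n = 2, limma adjusted p = 0.351), whereas the astrocytic aldolase Aldoc was at -0.08. For Slc2a1 the authors' deposited table gave a far smaller p of 7.16e-07, which that table does not call adjusted or unadjusted. Aldoa, the aldolase of most tissues, had -0.05 ± 0.14 (SE, n = 2 per group). Of 27 further identity genes, with a median of 0.02, F3, tissue factor, had the smallest p, with 503 (wild-type 11), 515 (wild-type 73), 691 (mutant 38) and 703 (mutant 39). Between the groups lay a difference of 0.45 ± 0.11 log2 units (SE over 2 and 2 libraries, n = 2, limma adjusted p = 0.923). The authors' deposited table gave p = 0.00832 for F3. In this list Hes5, a Notch target of progenitors and astrocytes, had the lowest estimate, with -0.70 ± 0.30 (SE, n = 2 per group).

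**Figure D5:**
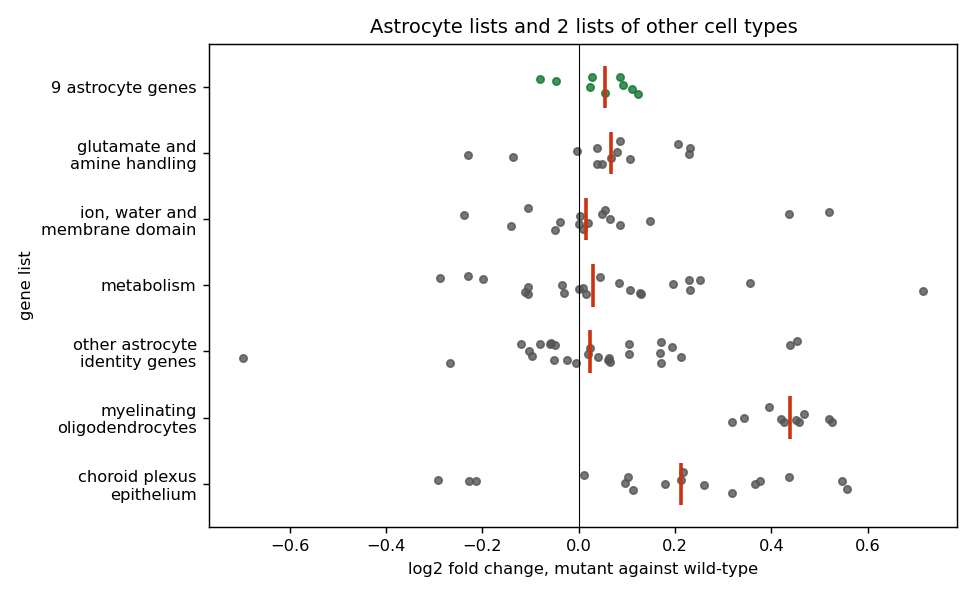
Log2 fold change of mutants against wild-types (horizontal axis) for each gene of the 9, of the 4 further astrocyte lists and of 2 lists of other cell types, with a red bar at each median. The 9 genes lie between -0.08 and 0.12 around a median of 0.05, and the 10 oligodendrocyte markers between 0.32 and 0.53.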

How the data were processed

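RNA was measured in 2 mutant and 2 wild-type hippocampus samples from ribosome-depleted, strand-marked, single-end libraries, per the labels' protocols. GSNAP, DESeq2 and the mouse build mm9 are named in the submitters' processing notes, with no role or version, whereas what counted the reads, whether by strand, and on which gene models is not given in the sources used here. The values the authors deposited are signal, aligned bases per transcript record (31315 records) divided by 1 factor per library, and are not adjusted for length. All values (100%) of a library fell on whole multiples of 1 step, within 0.05 of a step, with low values at 42, 84 and 126 steps. The p-value column deposited by the authors does not say whether it was adjusted.

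Each value was divided by 42. A gene was represented by its transcript record with the highest mean. Genes with at least 1 read equivalent in 2 libraries entered limma 3.58.1 (R 4.3.3) as log2(read equivalents + 1), two-sided, with a variance trend, group as the only term and Benjamini-Hochberg adjustment over all 18127 genes at 0.05. Fold changes are on that scale. No count model was run because the deposited unit is signal. No library repeated another, as the chi-square of each pair divided by its degrees of freedom was 8.68 to 19.5. Tables and plots were made with Python 3.11.15 and matplotlib 3.10.9. The smallest p of an exact two-sided permutation test at this size is 0.333. The genes and lists were chosen with earlier results of these data known. Genes named beside the 9 and Atp6ap2 are up to 4 with the smallest p of each astrocyte list, family genes with a mean above 100, the most abundant gene of each list of another cell type, and the 3 genes nearest to the mean profile. Some of them are not reported here. Gfap, Hepacam and the cell type sums were added after their values were seen.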

Additional observations from a re-analysis of the deposited data

How the results depend on the processing

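None of the 9 genes passed under any of the 12 alternatives that gave a test. The smallest adjusted p was 0.547 and the smallest unadjusted p 0.0908, both from limma. Under the 8 alternatives that kept all libraries, 0 signs turned, whereas the 2 pairs matched in choroid plexus markers, which give no test, had opposite signs for 6 genes. Among those 8, the robust prior, the fit without a variance trend and the fit without a filter leave the log2 fold change itself unchanged. They could not turn a sign, and a pseudocount of 5 hardly changes values this high. With 1 library left out, log2 fold changes ran from -0.14 to 0.046 for Slc1a3, from -0.036 to 0.28 for Aqp4, from -0.089 to 0.14 for Gja1, from -0.049 to 0.23 for Gjb6, from -0.11 to 0.16 for Slc4a4, from -0.22 to 0.062 for Aldoc and from -0.061 to 0.17 for Mlc1. The median of the 9 ran from 0.026 to 0.074 in these fits and was 0.016 within the pair poor in choroid plexus markers. The number of genes passing over the whole table, 1 in limma with all libraries, was 12 with a robust prior, 0 without a variance trend (938 had an unadjusted p below 0.05) and 87 when the level of choroid plexus markers was a covariate, which leaves 1 residual degree of freedom. It ran from 1 to 37 with 1 library left out, where a lone library is assumed to vary like the other group. The cause was not tested. No paired analysis was possible because the replicate numbers of the groups are not shared. Depth limits Gjb6 and Aldh1l1 most, with 498 and 561 reads in wild-type 73.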

Other observations

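Some relatives of the 9 genes, known from oligodendrocytes or choroid plexus, had values unlike theirs. Others did not, among them Slc1a1 with a log2 fold change of 0.02 ± 0.11 and Slc4a10 with 0.05 ± 0.11 (SE, n = 2 per group). For Panx2 and Slc1a6 both mutants lay below both wild-types, as for 16.5% of all genes. Their log2 fold changes were -0.28 ± 0.14 and -0.29 ± 0.18 (SE, n = 2 per group, limma adjusted p = 0.989 for each). Gjc3, the connexin 29 gene of myelinating glia, stood at 789 (wild-type 11), 515 (wild-type 73), 1077 (mutant 38) and 1004 (mutant 39) scaled read equivalents. Mutant minus wild-type gave 0.70 ± 0.20 log2 units (SE over 2 and 2 libraries, n = 2, limma adjusted p = 0.989), while Gja1 and Gjb6 had 0.03 and 0.09. Gjb1, another connexin gene of oligodendrocytes, had 0.57 ± 0.32 (SE, n = 2 per group). Both mutants were above both wild-types for Gjc3 and for 9 of 10 oligodendrocyte markers, beside 16.8% of all genes tested.

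Aqp1, the water channel of choroid plexus, stood at 285 (wild-type 11) and 408 (mutant 38), and at 21.9 (wild-type 73) and 10.9 (mutant 39). Slc4a5, a bicarbonate transporter of the same epithelium, had 357 and 659 against 26.2 and 18.9. The family members of astrocytes, Aqp4 and Slc4a4, differed between the libraries of 1 group by at most 0.32 on the log2 scale. Slc4a7 and Slc4a8, further sodium-bicarbonate transporters, had 0.05 ± 0.09 and 0.09 ± 0.09 (SE, n = 2 per group).

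The mean profile of the 9 genes, as log2 deviation from each gene's mean, was nearly flat, from -0.04 in wild-type 73 to 0.03 in mutant 38. Of 11493 other genes with a mean of at least 100 scaled read equivalents, Rbbp5 was nearest to it, with a root mean square difference of 0.0013 over 4 libraries.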
